A study of Mus musculus with 12 samples.

Results

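The subunits described here are 8 of the neuronal nicotinic acetylcholine receptor subunits on the array, chosen by symbol among its 27827 gene names. The 8 genes were Chrna3, Chrna4, Chrna5, Chrna6, Chrna7, Chrnb2, Chrnb3 and Chrnb4. They were read by 12 of the 41174 probes. Of these 12 probes, 10 had enough signal to be tested, among 32376 tested probes in all, and they covered 7 of the 8 genes. The Chrnb4 probe and the second Chrna7 probe were not tested. RNA came from the hypothalamus of male ICR mice, an outbred strain, and was hybridised to 12 single-color Agilent arrays. Mice entered at 3 weeks of age and had water in both drinking tubes on days 1 to 5. Water-only controls then kept water in both tubes, while alcohol mice chose between water and a 5% or 10% alcohol solution. The 9 water mice made 3 pools of 3 mice. The 19 alcohol mice made 9 pools of 1 to 3 mice, labelled low, early high and late high drinkers, with 3 pools each. An array thus read a pool or a single mouse, and the errors and p-values given here measure the spread between such pools. The sources differ on the end of drinking, day 51 in the sample labels and day 57 in the design text.

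Nicotinic receptors are ion channels built from 5 subunits that open when acetylcholine or nicotine binds. Alpha and beta subunits combine into receptors with different properties, of which the alpha4beta2 and alpha7 types are the most widespread in brain. Chrna6 and Chrnb3 are known from the dopamine neurons of the midbrain, and Chrna3, Chrna5 and Chrnb4 from the medial habenula and autonomic ganglia. Chrna5 and Chrnb3 encode accessory subunits that need other alpha and beta partners to form a channel.

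Members on chromosomes 8 and 9 were neighbours. The Chrnb3 probe at chr8:28509397-28509456 and the Chrna6 probe at chr8:28514908-28514967 (mm9, as the array files give positions) were 5451 bp apart. On chromosome 9 the Chrna5 probe at chr9:54852958-54854271 was 4959 bp from the first Chrna3 probe at chr9:54859231-54859290. The second Chrna3 probe at chr9:54860710-54862976 was 19490 bp from the Chrnb4 probe at chr9:54882467-54882526. The other genes lay on chromosomes 2 (Chrna4), 3 (Chrnb2) and 7 (Chrna7). Each probe is 60 bases long, so the 1314 bp covered by the Chrna5 probe and the 2267 bp covered by the second Chrna3 probe mean that both join 2 exons across an intron. The second Chrna7 probe joined exons over 38166 bp. The sequences below are those of the probe of the dopamine-neuron subunit Chrna6, of the neighbours Chrna5, Chrna3 and Chrnb4 on chromosome 9, whose probes could share sequence, and of the untested Chrna7 probe, printed 5′ to 3′ as the array files give them, each with at least 1 reading frame free of stop codons. The array files place the Chrna5 probe on the plus strand and the other 4 on the minus strand. Capitals mark the longest run shared by the Chrna5 and Chrna3 probes, 8 bases.
Chrna6: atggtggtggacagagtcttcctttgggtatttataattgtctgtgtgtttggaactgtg
Chrna5: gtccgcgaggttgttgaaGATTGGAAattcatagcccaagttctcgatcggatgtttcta
Chrna3, probe 2: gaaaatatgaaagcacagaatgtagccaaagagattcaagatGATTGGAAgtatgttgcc
Chrnb4: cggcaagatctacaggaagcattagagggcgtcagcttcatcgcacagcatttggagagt
Chrna7, probe 2: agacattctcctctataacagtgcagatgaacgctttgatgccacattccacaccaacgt
Over the 62 pairs of probes of different genes, no run longer than 8 bases was shared on the same strand. Between 22 and 31 of the 60 bases of the 5 probes shown were G or C.

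Values are log2 signals relative to the 75th percentile of their own array, so a negative value lies below that percentile. They can be compared between arrays for 1 probe but not between probes. The 12 arrays sat on 3 slides of 4 arrays. Slide 1 held all water pools and low pool 1 and was scanned on a later day, slide 2 held low pools 2 and 3 and early high pools 1 and 2, and slide 3 held the rest. Between 67.0% and 79.3% of spots were well above background. Of 12 hypothalamic marker genes, among them Hcrt, Pmch, Pomc, Avp and Oxt, 10 were well above background on all arrays, Sim1 was so on 11, and Otp on none. Low pool 2 stood apart in its dim spots, with a lower quartile signal of 63.2 in scanner units against 22.3 to 34.0 on the other 11 arrays.

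No subunit passed an adjusted p of 0.05 in the 4 comparisons fitted to all 12 arrays without a block. With the scan day as a block Chrna3 did for high against low drinkers (adjusted p = 0.00334 by limma), a setting in which 8.78% of all probes did, and the smallest member value over the 4 groups was 0.0103, with 2.48% of all probes. For alcohol against water, 2 of the 10 tested probes, 1 of Chrna3 and 1 of Chrnb3, had an unadjusted p under 0.05, where 5.53% of all tested probes did. Both lay higher in alcohol. Over all probes 3.85% passed that threshold with a higher and 1.68% with a lower level in alcohol. All 10 log2 differences were above 0, with a median of 0.57. Over all tested probes 59.6% were above 0, with a median of 0.027. The 10 probes shared all arrays, and Chrna3, Chrna4 and Chrnb3 had 2 probes each, so these are not 10 independent measurements. No probe of any gene passed an adjusted p of 0.05 in this comparison, 0% of those tested (limma, Benjamini-Hochberg).

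**Figure D1:**
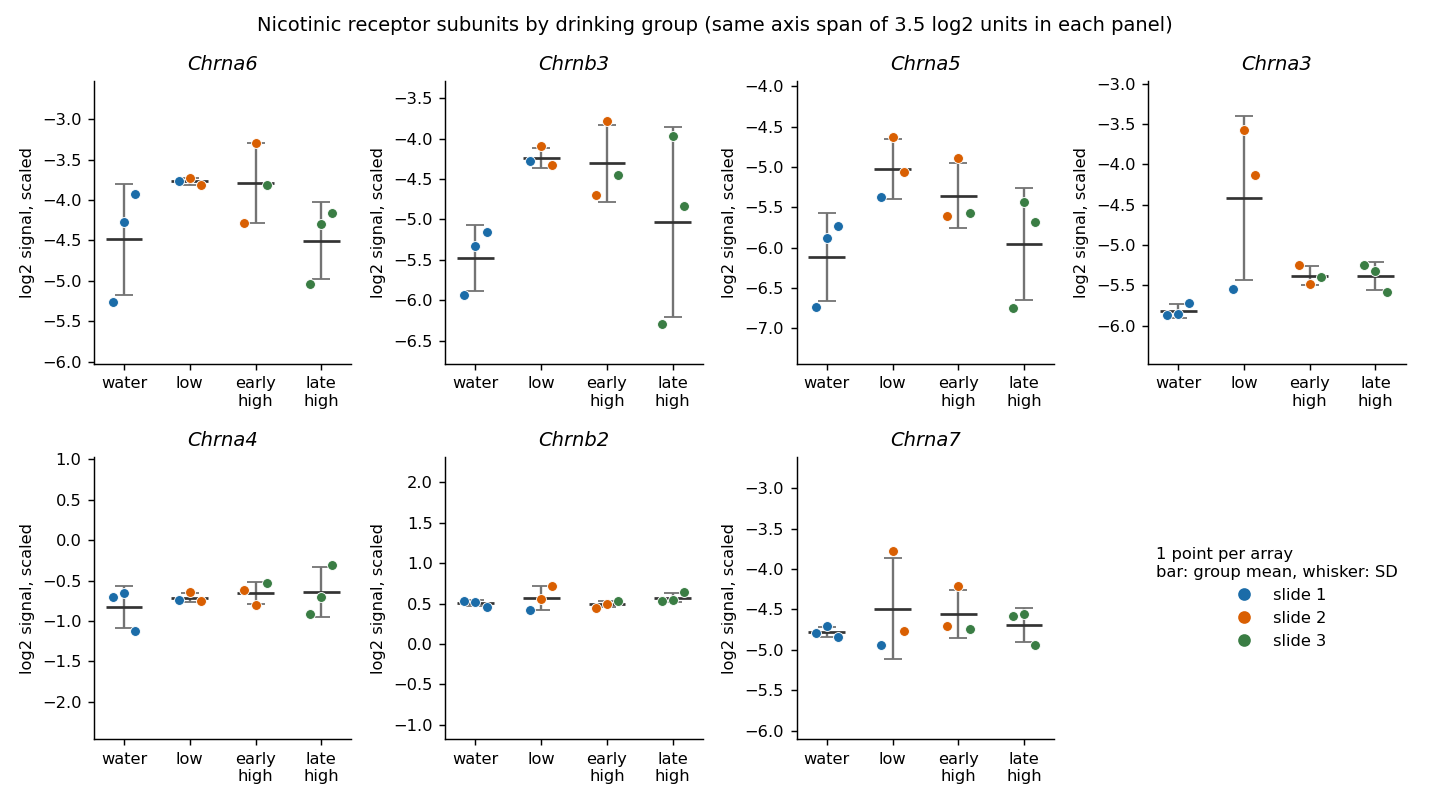
Scaled log2 signal (y axis) of the main probe of 7 subunits in the 4 drinking groups (x axis), 1 point per array, colored by slide, with the group mean and SD. Chrnb3, Chrna6 and Chrna5 spread widely, with water 1 and late high 1 low in each, Chrna3 was highest in low pools 2 and 3, and Chrnb2 stayed between 0.42 and 0.72.

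Among the 10 tested member probes the largest difference between alcohol and water was that of Chrnb3, the beta3 accessory subunit. Its scaled log2 signal was -5.94, -5.33 and -5.16 in the 3 water pools. In low drinkers it was -4.28, -4.09 and -4.33, in early high drinkers -4.69, -3.78 and -4.45, and in late high drinkers -6.29, -3.97 and -4.83. Thus 8 of 9 alcohol pools lay above every water pool, and late high pool 1 lay below all of them. The alcohol mean was -4.52 ± 0.74 (SD, n = 9) against -5.48 ± 0.41 in water (SD, n = 3), a log2 difference of 0.95 with SE 0.43 and a 95% interval of 0.021 to 1.89. The adjusted p was 0.819 (limma) and the unadjusted p 0.0458. Water pool 1 was not well above background on this probe, so the difference has no exact size. A second Chrnb3 probe at chr8:28507869-28507928 was well above background on 5 of the 9 alcohol arrays and on none in water, so no fold is given for it. Early high pool 2 was highest at -4.57. Among the 11 arrays with a usable value late high pool 1 was lowest at -7.22, which was not well above background. Water pool 1, which had been dropped as too dim, read -7.79. The 2 Chrnb3 probes followed each other with r = 0.96 over the 11 arrays on which both had a value, of which 5 were well above background on the second probe.

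Chrna6, which encodes the alpha6 subunit that carries the binding site in receptors of dopamine terminals, was well above background on all 12 arrays. Water pools read -5.26, -4.27 and -3.93. Low drinkers read -3.76, -3.73 and -3.81, early high drinkers -4.28, -3.29 and -3.81, and late high drinkers -5.04, -4.30 and -4.16. The groups overlapped: 5 of 9 alcohol pools lay above the highest water pool, and late high pool 1 was close to the lowest water pool. The log2 difference of 0.47 (SE 0.34, 95% interval -0.27 to 1.20, adjusted p = 0.823 by limma) was 0.080 without water pool 1 and 0.75 without water pool 3. Leaving out water pool 1 took Chrnb3 from 0.95 to 0.72 and Chrna5 from 0.67 to 0.36. Without late high pool 1 the differences were 0.59 for Chrna6, 1.17 for Chrnb3 and 0.83 for Chrna5, with adjusted p = 0.834 for each (limma).

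Chrna5 encodes the alpha5 accessory subunit. Its water pools read -6.74, -5.88 and -5.73, and its low pools -5.37, -4.63 and -5.07. Early high pools read -5.61, -4.89 and -5.58, and late high pools -6.74, -5.43 and -5.68. As for Chrnb3, 8 of 9 alcohol pools were above every water pool and late high pool 1 was at the level of the lowest one. The signal exceeded background clearly on 8 of 12 arrays, 2 of them water. It did not in water pool 1, low pool 3, early high pool 1 and late high pool 1. The order of those readings is not firm, and the difference has no exact size. The log2 difference was 0.67 with SE 0.37 (95% interval -0.13 to 1.47, adjusted p = 0.819 by limma).

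Only slide 1 held both water and alcohol. On that slide low pool 1 exceeded the mean of the 3 water pools by 1.20 for Chrnb3, 0.73 for Chrna6 and 0.74 for Chrna5, where the water SD was 0.41, 0.69 and 0.54. These 3 differences were as large within the slide as over all 12 arrays, but rest on 1 alcohol pool. For the other genes the within-slide differences were 0.060 and 0.26 for the Chrna3 probes, -0.21 and 0.082 for the Chrna4 probes, -0.16 for Chrna7 and -0.083 for Chrnb2. With the slide as a block, which leaves the same within-slide contrast, the adjusted p (limma) was 1.00 after rounding for the main probe of each tested gene.

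**Figure D2:**
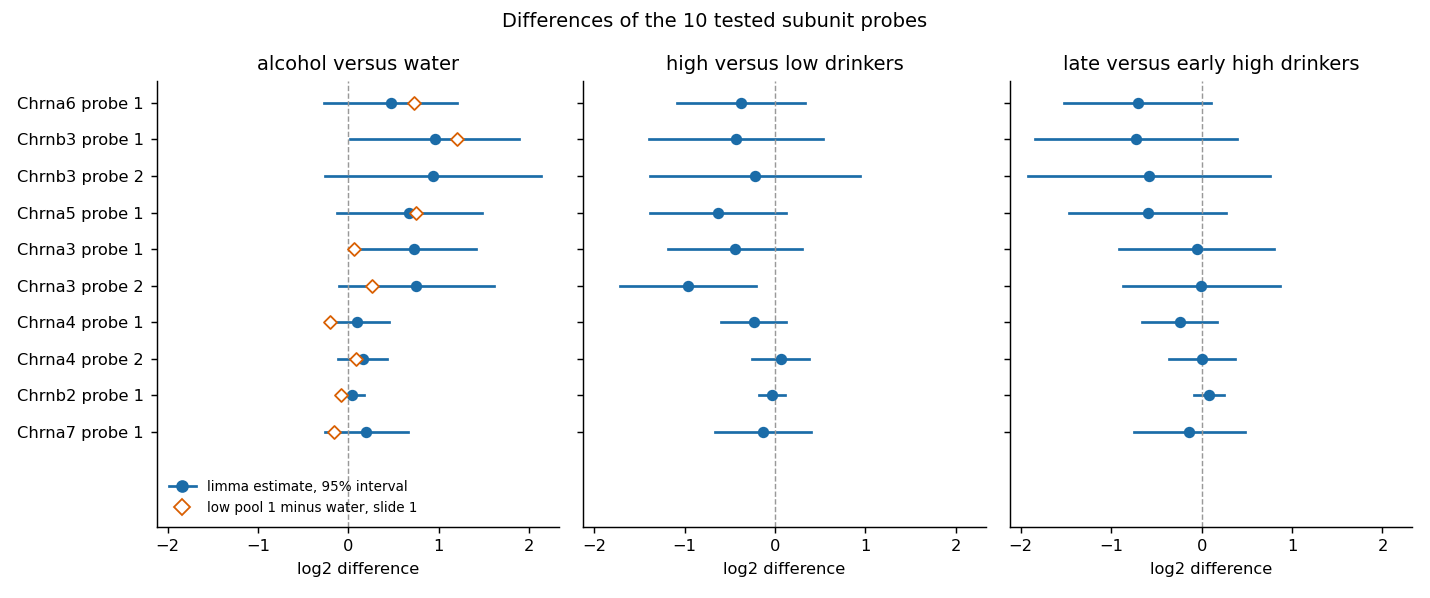
Log2 differences (x axis) of the 10 tested subunit probes (y axis) in 3 comparisons, with limma estimates and 95% intervals, and open diamonds for low pool 1 minus the water mean on slide 1 (no value for Chrnb3 probe 2). Estimates for alcohol against water all lie above 0, and only the intervals of Chrna3 probe 1 and Chrnb3 probe 1 leave out 0 there; that of Chrnb3 probe 2 is set against water arrays on which it was not above background. For high against low drinkers only that of Chrna3 probe 2 does.

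Chrnb3, Chrna6 and Chrna5 moved from array to array with genes of dopamine neurons. Slc6a3, the dopamine transporter, read 0.70, 1.80 and 1.97 in the water pools. It read 2.92, 2.79 and 2.76 in low, 2.21, 3.40 and 2.66 in early high, and -0.82, 3.09 and 2.21 in late high pools. The order of the arrays was nearly that of Chrnb3, with late high pool 1 and water pool 1 lowest and early high pool 2 highest. Over 12 arrays r with Slc6a3 was 0.96 for Chrnb3 (rho = 0.99), 0.85 for Chrna6 (rho = 0.68) and 0.89 for Chrna5 (rho = 0.92). Without the 2 arrays farthest from the median of Slc6a3 these were 0.98, 0.63 and 0.74. After each slide's mean was removed they were 0.98, 0.82 and 0.90, and among the 9 alcohol arrays 0.98, 0.86 and 0.88. All of these points share the arrays and the scaling of each array, so r describes the arrays and carries no p. For Chrna4, Chrna7, Chrnb2 and Chrna3 (main probes) r with Slc6a3 was 0.26, 0.21, 0.021 and 0.25.

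**Figure D3:**
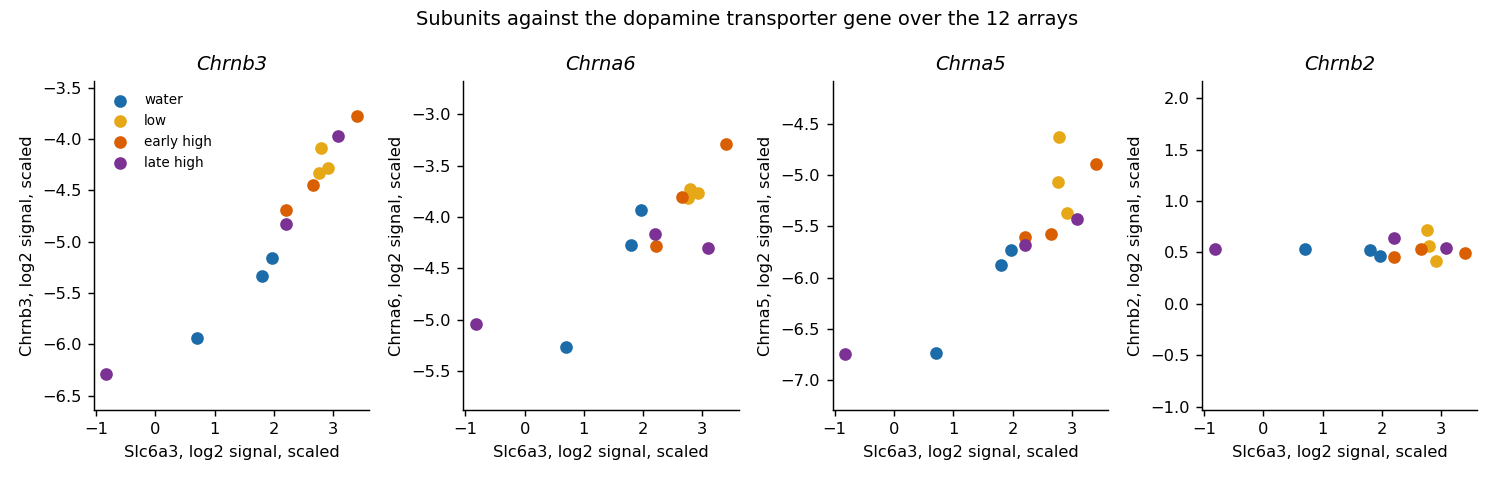
Scaled log2 signal of 4 subunits (y axis) against that of Slc6a3 (x axis), 1 point per array, colored by group. Chrnb3 lies along a line from late high 1 to early high 2, Chrna6 and Chrna5 follow it more loosely, and Chrnb2 is flat.

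The marker list for midbrain dopamine neurons was Th, Slc6a3, Slc18a2, En1, Foxa1 and Aldh1a1. Of these 6 genes, 5 were well above background on all 12 arrays, and En1, a transcription factor of those neurons, on none. Over 12 arrays the r of these 5 with Chrnb3 ran from 0.51 for Foxa1 to 0.96 for Slc18a2. The summed linear signal of the list, relative to each array's 75th percentile, was 8.84 to 11.4 in water, 17.2 to 17.8 in low, 13.3 to 23.4 in early high and 6.01 to 18.2 in late high pools, of which Slc6a3 made up 9.41% to 46.7%. All low and early high pools were thus above all water pools, and late high pool 1 was below them. Th, the enzyme that makes the dopamine precursor, differed by 0.51 between alcohol and water with an unadjusted p of 0.0253 (limma). Foxa1, another transcription factor, differed by 0.75 with 0.0103, and Slc6a3 by 0.87 with 0.251. Without water pool 1 the Slc6a3 difference was 0.47, and without late high pool 1 it was 1.26. Th and Slc6a3 are also made by dopamine neurons of the hypothalamus itself. The part of these genes in the subunit differences was not tested, and in whole tissue more cells of a type and more RNA per cell cannot be told apart.

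The 3 named genes whose array pattern was nearest to each subunit's main probe were found over 12 arrays among up to 18740 probes. Only probes well above background on all 12 arrays were searched. The highest of so many r over so few arrays is high by selection, so these r carry no p. For Chrnb3 they were Pitx3 (r = 0.98), the vesicular monoamine transporter Slc18a2 (0.96) and Slc6a3 (0.96). For Chrna6 they were Ddc, which turns the precursor into dopamine (0.94), Slc18a2 (0.88) and Cd38 (0.86). For Chrna5 they were Pitx3, a transcription factor of midbrain dopamine neurons (0.95), Pde1c (0.92) and Chrna6 (0.90). Chrnb3 and Chrna6, neighbours on chromosome 8, had r = 0.85 with each other, and Chrnb3 and Chrna5, on different chromosomes, 0.93. Chrna5 and Chrna3, neighbours on chromosome 9, had r = 0.60 for the main Chrna3 probe and 0.65 for the other.

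Chrna3, the alpha3 subunit of ganglionic receptors, was the member whose 9 alcohol pools all read above its 3 water pools, on both of its probes. Both were dim: on each, 2 of the 3 water readings were not well above background, nor were 4 of 9 alcohol readings on the first probe and 1 of 9 on the second, and such readings have no firm order. Among 29521 probes measured on all 12 arrays, 0.982% showed that, and 0.325% had all alcohol pools below all water pools. On the second probe water read -5.86, -5.86 and -5.71, low drinkers -5.55, -3.58 and -4.14, early high drinkers -5.25, -5.48 and -5.40, and late high drinkers -5.25, -5.32 and -5.58. On the first probe the water pools read -5.89, -6.05 and -5.89, and the alcohol pools from -5.88 to -3.94 with a median of -5.39. Low pool 1, the alcohol pool that shared the slide of the water pools, was lowest of the 9 on the first probe and nearly level there with the highest water pool. The log2 differences were 0.73 (SE 0.31, unadjusted p 0.0387) and 0.75 (SE 0.39, unadjusted p 0.0812), with an adjusted p of 0.819 for both by limma. Since 2 of the 3 water readings were not well above background, these differences have no exact size. Without low pool 2 the differences were 0.57 and 0.56. With the slide or the scan day as a block that of the second probe was 0.26.

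Each Chrna3 probe tracked the dim end of the signals of its array. Over the 12 arrays, r with the array's 25th percentile of scaled signal was 0.94 for the first probe and 0.90 for the second. Without the 2 arrays farthest from the median of that percentile it was 0.77 and 0.47. The same r was 0.86 for Chrna7 (0.84 without those 2 arrays), 0.71 for Chrna5 (0.59), 0.50 for Chrnb3 (0.55) and 0.47 for Chrna6 (0.57). For Chrna4 it was 0.85 on the first probe (0.37 without the 2 farthest arrays), although that probe was well above background on all 12 arrays, and 0.0092 on the main probe. For Chrnb2 it was 0.29. The 25th percentile was -6.28 to -6.05 on the water arrays, -6.27 on low pool 1, and -4.60 and -5.49 on low pools 2 and 3. Its part in the Chrna3 values was not tested. Markers of the medial habenula, where Chrna3 is known to be abundant, had 4 of 5 measured genes well above background on all arrays, with Gpr151 on 5. The summed linear signal was 6.55 to 7.34 in water, 6.68 to 6.75 in low, 6.18 to 7.21 in early high and 5.71 to 7.36 in late high pools, but 81.9% to 87.7% of it was Tac2. Gpr151, an orphan receptor of habenular neurons, read -6.69, -6.61 and -6.32 in water, -6.76, -3.59 and -5.00 in low, -5.19, -5.22 and -5.56 in early high and -6.06, -5.92 and -6.31 in late high pools. Its 3 water readings were below the level counted as well above background, so no difference is given. Low pools 2 and 3 read highest, but low pool 3 was also below that level, -4.86 on its array, so its rank is not firm. The other 4 habenula genes differed between alcohol and water by -0.26 (Lrrc55), -0.085 (Tac2), -0.081 (Pou4f1) and 0.013 (Gng8). The part of this list in the Chrna3 values was not tested.

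**Figure D4:**
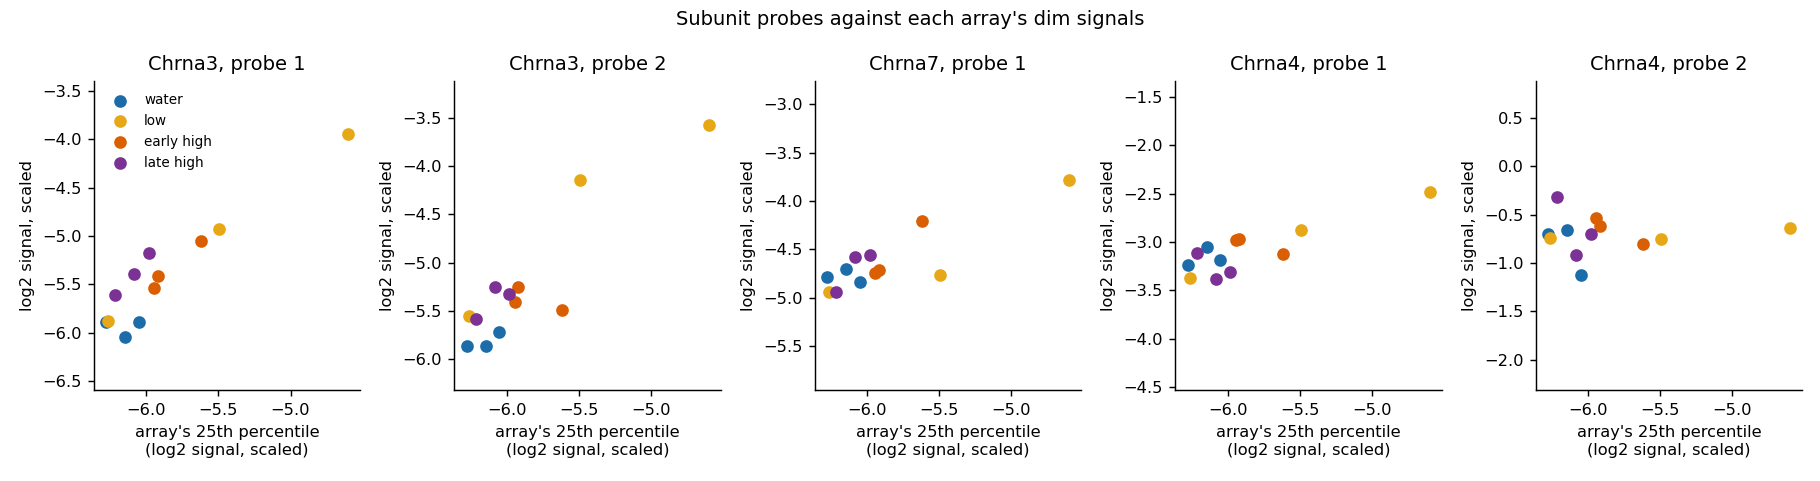
Scaled log2 signal of 5 subunit probes (y axis) against the 25th percentile of scaled log2 signal of the same array (x axis), 1 point per array, colored by group. The Chrna3 probes follow the percentile, low pool 2 is at the upper right in the panels of Chrna3, Chrna7 and Chrna4 probe 1, and Chrna4 probe 2 shows no such slope.

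Chrnb4, the beta subunit that pairs with alpha3 in ganglia, was read by 1 probe that was near background. It was well above background on 2 of 12 arrays, early high pool 2 at -6.06 and late high pool 2 at -3.18. It had a usable value on 1 of 3 water and 6 of 9 alcohol arrays and could not be tested under the requirement of 2 water arrays. Late high pool 2 gave a signal of 202, against 49.5 in low pool 2, the next highest, and 6.80 in the lowest. No fold is given, since neither the water readings nor 7 of the 9 alcohol readings were well above background.

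The subunits of the most widespread receptor, Chrna4 and Chrnb2, showed small differences. Chrnb2, the beta2 subunit, read 0.53, 0.52 and 0.46 in water, and 0.42 to 0.72 with a median of 0.54 in the 9 alcohol pools. Its SD over the 12 arrays was 0.081, lower than the median SD of 0.14 over the 29521 probes measured on all of them, not matched for signal level. Its log2 difference was 0.040 with a 95% interval of -0.093 to 0.17 (adjusted p = 0.897 by limma).

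Chrna4, the alpha4 subunit, read -0.70, -0.66 and -1.12 in water on its main probe at chr2:180757309-180757368. The alcohol pools read -0.92 to -0.31 with a median of -0.70. The highest was late high pool 3 and the lowest late high pool 1, so the groups overlapped. The log2 difference was 0.16 (95% interval -0.11 to 0.43, adjusted p = 0.828 by limma), and 0.011 without water pool 3. The other Chrna4 probe, at chr2:180759428-180759487, differed by 0.092 (95% interval -0.26 to 0.45). The 2 probes had r = 0.31 over the 12 arrays, and low pool 2 was highest, at -2.48, on the second of these.

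Chrna7, which alone can form the alpha7 receptor, was read by a probe at chr7:70244005-70244064. Water pools read -4.79, -4.71 and -4.84, and alcohol pools from -4.94 in low pool 1 to -3.78 in low pool 2, with a median of -4.71. Of 9 alcohol pools, 4 were above the highest water pool. The log2 difference was 0.20 (95% interval -0.26 to 0.66, adjusted p = 0.858 by limma). It was 0.099 without low pool 2. The probe across the intron was well above background on 0 of the 12 arrays, so the 2 Chrna7 probes could not be compared.

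Low and high drinkers were compared to ask whether the subunits followed the amount drunk. Of the 10 probes, 1 had an unadjusted p under 0.05, against 15.1% of all tested probes (3.32% higher and 11.8% lower in high drinkers). At an adjusted p under 0.05 there were 0 member probes and 0.294% of all probes. Of the 10 differences (high minus low) 9 were below 0, with a median of -0.31, while 34.8% of all probes were above 0. The probe was Chrna3 probe 2, with a difference of -0.96 (SE 0.34, 95% interval -1.71 to -0.21) and an adjusted p of 0.249 by limma. Its value rested on low pools 2 and 3: without low pool 2 it was -0.54 with an adjusted p of 0.603, and without low pool 1 it was -1.52 with an adjusted p of 0.00328 (limma), but 8.83% of all probes passed the adjusted threshold there. The first Chrna3 probe gave -0.44 (adjusted p = 0.523 by limma). Within slide 2, the 2 early high pools differed from the 2 low pools by -1.51 on the second probe and by -0.80 on the first. Against low pool 3 alone these were -1.23 and -0.30. For Chrnb3 the high minus low difference was -0.44 (95% interval -1.40 to 0.53), for Chrna6 -0.38 (-1.08 to 0.33) and for Chrna5 -0.63 (-1.38 to 0.12). Without late high pool 1 these were -0.12, -0.24 and -0.43. Without late high pool 2 that of Chrnb3 was -0.70, without early high pool 1 that of Chrna6 was -0.26, and without low pool 2 that of Chrna5 was -0.43. Over all processing alternatives the smallest in size were -0.0084 for Chrnb3, -0.041 for Chrna6 and -0.092 for Chrna5. Within slide 2, early high minus low was -0.027, -0.014 and -0.40 for these genes. The high minus low differences of Chrna4, Chrna7 and Chrnb2 lay between -0.24 and 0.062.

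Among high drinkers, late was set against early, as the labels divide them. None of the 10 probes had an unadjusted p under 0.05, where 12.3% of all tested probes did (4.28% higher and 8.06% lower in late high drinkers, limma). No probe of any gene passed an adjusted p of 0.05. Of the 10 differences (late minus early) 2 were above 0, as were 43.0% of all probes. The 3 genes that moved with Slc6a3 had the largest differences, -0.71 for Chrna6 (95% interval -1.52 to 0.11), -0.73 for Chrnb3 (-1.84 to 0.39) and -0.59 for Chrna5 (-1.46 to 0.27). Each depended on single pools. Without late high pool 1 the differences were -0.44, -0.095 and -0.20, and without early high pool 2 they were -0.46, -0.46 and -0.36. Without late high pool 2 that of Chrnb3 was -1.26. Markers of regions beside the hypothalamus also varied between these pools. All 7 thalamic markers were well above background on all arrays, and their summed linear signal was 15.8 to 23.1 in late high, 10.3 to 18.8 in early high, 11.1 to 18.1 in low and 12.1 to 14.3 in water pools. For the 6 markers of basal forebrain and striatum, also all above background, it was 5.02 to 5.71 in late high, 5.68 to 7.33 in early high, 6.32 to 7.62 in low and 6.86 to 7.79 in water pools. Their part in the subunit differences was not tested. A test over all 4 groups gave an unadjusted p under 0.05 for 1 of 10 probes, Chrna3 probe 2 (adjusted p = 0.296 by limma), against 14.7% of all tested probes. At an adjusted p under 0.05 there were 0 member probes and 0.108% of all probes.

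By group means, Chrnb3, Chrna5, Chrna3 and Chrna7 had the order low, early high, late high and water from high to low on their main probes. For Chrna6 late high came last, at -4.50 ± 0.47, beside water at -4.49 ± 0.69 (SD, n = 3 each). Each step between neighbouring means in that order was smaller than the larger of their SDs for Chrnb3, Chrna5 and Chrna7. For Chrna3 the step from low to early high, -4.42 ± 1.02 to -5.38 ± 0.12 (SD, n = 3 each), was also within the SD of the low pools. The step from late high to water at -5.81 ± 0.086 was larger than both SDs. Only 1 of those 3 water readings was well above background, so that step has no exact size. Over the 12 arrays the SD was 0.79 for Chrnb3, 0.69 for Chrna3 (main probe), 0.64 for Chrna5 and 0.56 for Chrna6, against an upper quartile of 0.26 over the 29521 probes. Those probes were not matched to these dim ones for signal level. The nearest genes in array pattern were Igf2bp2 (r = 0.97) for Chrna3, B4galnt4 (0.88) for Chrna4, Rhbg (0.94) for Chrna7 and the neuropeptide gene Cck (0.91) for Chrnb2. For Chrna3 the likeness fell to r = 0.72 without the 2 arrays farthest from its median.

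The other genes of cholinergic signaling were read as 4 lists. None of the 8 other nicotinic subunits, the 5 muscarinic receptors, the 6 tested of 7 genes for acetylcholine synthesis, transport and breakdown, or the 10 tested of 12 genes for receptor assembly and accessory proteins had an unadjusted p under 0.05 for alcohol against water. Their median log2 differences were 0.021, 0.060, 0.0076 and -0.0096, with ranges of -0.27 to 1.09, -0.55 to 0.14, -0.55 to 0.27 and -0.16 to 0.47. The highest was Chrna9 at 1.09 (adjusted p = 0.819 by limma), above that of any tested member. Its main probe was well above background on 11 arrays, 2 of them water, and its other probe, so on 7, gave 0.83. Slc5a7, the choline transporter, had -0.55 (adjusted p = 0.819), Slc18a3, which loads acetylcholine into vesicles, 0.0065 (0.998), and Ache, which breaks it down, 0.088 (0.832), all by limma. The probe of Chat, which makes acetylcholine, was well above background on 4 arrays and on none of the low and late high pools. No difference is given for Chat. The summed linear signal of Chat, Slc18a3 and Slc5a7, markers of cholinergic neurons of which only Slc5a7 was well above background on all arrays (Slc18a3 on 9 and Chat on 4), was 0.347 to 0.544 in water, 0.283 to 0.421 in low, 0.313 to 0.418 in early high and 0.149 to 0.334 in late high pools, with 72.5% to 91.4% of it from Slc5a7. Counting each gene by its main probe, 4 of the 29 tested genes had an unadjusted p under 0.05 for high against low drinkers, all lower in high drinkers. These 13.8% stand against 15.1% of all tested probes. They were the nicotinic subunits Chrna1 (-0.27) and Chrng, the muscarinic receptor Chrm1 (-0.31) and Ly6g6e (-0.64). For late against early high drinkers 3 of 29 (10.3%, against 12.3% of all probes) passed, namely Chrng, Chrm1 (-0.44) and Ly6h (-0.19), also lower. The Chrng probe was well above background on 4 arrays and on none of the low pools, so no difference is given for it. Counting every probe, 9 of 43 (20.93%, against 15.1% of all tested probes) passed for high against low. For late against early 6 of 43 did (13.95%, against 12.3%). By this count both shares lay above those of all tested probes, whereas the main-probe shares lay below. Some of the 43 probes read the same gene, so they are not independent. Counting them added Ric3, Bche, Lypd6 and Chrm4 through probes other than their main ones. Of these, the probes of Bche and Chrm4 were near background (3 and 4 arrays well above it). Ric3, a chaperone of receptor assembly, had 5 probes, of which 3 passed for high against low, at -0.25, -0.45 and -0.21, while the other 2 stood at -0.31 (main probe) and 0.043. None of the 43 probes had an adjusted p under 0.05, the smallest being 0.186 for a Ric3 probe in high against low drinkers (limma).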

How the data were processed

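Gene expression was measured on 12 Agilent arrays (design 014868), 3 pools each of water, low, early high and late high drinkers. The authors deposited scanner output with linear, background-corrected and detrended signal intensity that had not been scaled across arrays (Feature Extraction 10.5.1.1 in the file headers), and a table of their signal intensity per probe, used as an alternative. The spot flags in the deposited files marked outliers and signals well above background.

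The main values were log2 intensities minus each array's 75th percentile over 43379 non-control spots. Following the study's methods, spots with signal less than 2 times its error were dropped, as were outlier spots, and spots of a probe were averaged. Probes needed values on 2 of 3 water and 5 of 9 alcohol arrays. Tests used limma 3.58.1 in R 4.3.3 (lmFit, eBayes, Benjamini-Hochberg over all tested probes). A 2-group fit served alcohol against water, and a 4-group fit the other comparisons. The fits were tested on simulated data. The number of arrays limits the precision.

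A gene's main probe was its tested probe with the highest mean. Members and lists were chosen with earlier results of these data known. All members are named. Genes of other cholinergic lists are named only where an unadjusted p of a probe was under 0.05 or the gene defines the list. The gene with the highest difference between alcohol and water is named as well. Marker lists for pituitary, choroid plexus, muscle, neurons and astrocytes were also read (values under other observations), and 1 further list is not reported here. Probe positions are mm9 from the array files. Figures were drawn with matplotlib 3.10.9.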

Additional observations from a re-analysis of the deposited data

Results flagged for a closer look

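For 4 of the 10 measures, 1 of the 9 alcohol arrays stood far from the other 8, with a gap to its nearest neighbour of over 0.493 of the whole range. Chance gives about 1 in 20, or 0.5 of 10, and the 9 arrays join 3 labelled groups. Late high pool 1 was lowest for Chrnb3, at -6.29 against -4.83 on the next array (0.581 of the range), on its second probe at -7.22 (0.519), and for Chrna5 at -6.74 against -5.68 (0.502). The last 2 of these readings were not well above background on that array, where the lowest signal counted so was -6.52, so their gaps have no exact size. The first Chrna3 probe was highest in low pool 2, at -3.94 against -4.93 (0.51 of the range). Neither that next reading, in low pool 3, nor the lowest, in low pool 1, was well above background, so this gap has no exact size either.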

How the results depend on the processing

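Of the 2 member probes at an unadjusted p under 0.05 for alcohol against water, 1 was left with quantile normalization and 0 with normexp, with probes well above background on all arrays, with the slide as a fixed or a random block, with the scan day as a block, or by the methods' t-test (5.21% of all probes, and 0 after Benjamini-Hochberg). Leaving out 1 pool gave 0 to 4, the most without late high pool 1. Over all probes the adjusted count of 0 became 4 with the slide and 1 with the scan day as a block, and 0 to 0 without 1 pool. For high against low drinkers the 1 member probe became 2 with normexp, 2 with the slide as a fixed block, 3 with the scan day and 0 with probes well above background, and 0 to 3 without 1 pool. The 95 probes past an adjusted p of 0.05 became 1 (quantile), 50 (no scaling), 369 (normexp), 0 (no filter), 0 (well above background), 47 (slide), 34 (slide as a random block), 2839 (scan day), and 1 to 2828 without 1 pool, most without low pool 1. For late against early, 0 member probes became 1 with no scaling and 2 with normexp, and 0 to 1 without 1 pool. Over all probes 0 became 5 (quantile), 1 (no scaling), 2 (well above background), 13 (slide) and 11 (scan day), and 0 to 191 without 1 pool. Over the 4 groups, 1 member probe became 4 with normexp, 0 with probes well above background and 3 with the scan day, and 0 to 4 without 1 pool. The 35 probes past the adjusted threshold became 0 (quantile), 17 (no scaling), 2 (normexp), 0 (no filter), 0 (well above background), 2 (slide as a random block) and 803 (scan day), and 0 to 1964 without 1 pool. For high against low, the scan day as a block and leaving out low pool 1 give the same contrast. Low pool 1 was the only alcohol pool scanned on the day of the water pools. Apart from this and from fewer probes or pools in some settings, the cause was not tested.

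With the replicate number as a block, the member counts were 4 for alcohol against water, 2 for high against low, 2 for late against early and 4 over the 4 groups, and the all-probe counts 0 for high against low and 0 over the 4 groups. The numbers pair no pools: deviations of same-numbered pools had r of -0.089 to 0.18, and 5 of 12 arrays correlated best with their own number.

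Directions kept under every alternative were those of Chrna3, Chrna4, Chrna5, Chrna6 and Chrnb3 for alcohol against water, of Chrna3, Chrna5, Chrna6 and Chrnb3 for high against low, and of Chrna5, Chrna6, Chrnb2 and Chrnb3 for late against early. Their sizes were less steady. For alcohol against water Chrna3 shrank to 0.26, Chrna4 to 0.011, Chrna5 to 0.27, Chrna6 to 0.080 and Chrnb3 to 0.46. For high against low Chrna5 shrank to -0.092, Chrna6 to -0.041 and Chrnb3 to -0.0084. For late against early Chrnb2 shrank to 0.043 and Chrnb3 to -0.095. The slide or scan day as a block turned Chrna7 to -0.16 and Chrnb2 to -0.083 for alcohol against water. For high against low, Chrna4 was -0.073 with the slide as a block and -0.24 on its other probe, Chrna7 was 0.23 with quantile normalization and Chrnb2 0.097 with no scaling. Without 1 pool these ran from -0.020 to 0.13, -0.35 to 0.23 and -0.10 to 0.044. For late against early, Chrna3 was 0.24 (quantile), 0.15 (no scaling), 0.017 (slide) and 0.076 (slide as a random block). Chrna4 was -0.012 (normexp), -0.11 (slide), -0.0077 (slide as a random block) and -0.24 (other probe), and Chrna7 0.047 (quantile), 0.017 (no scaling) and 0.050 (slide). Without 1 pool these ran from -0.071 to 0.093, -0.16 to 0.15 and -0.23 to 0.035. Chrna3, high against low, passed the adjusted threshold with the scan day as a block (-1.52, adjusted p = 0.00334 by limma). Of all probes at an unadjusted p under 0.05 for alcohol against water, 69.6% were higher, 50.2% with quantile normalization and 81.1% with no scaling. For high against low these were 22%, 57.8% and 66.7%, and for late against early 34.7%, 46.3% and 83.2%. Chrna3, Chrna5 and Chrnb3 had no value with probes well above background on all arrays, since their probes were not. No scaling moved the median of all probes to 0.12 for late against early.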

Other observations

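Marker genes of other cells were summed as linear signal relative to each array's 75th percentile. Pituitary markers (5 genes) ran from 3.25 to 12.4 in water, 6.90 to 9.40 in low, 0.911 to 3.37 in early high and 3.93 to 6.44 in late high pools. Choroid plexus markers (5 genes) ran from 2.52 to 3.32 in water, 2.76 to 3.18 in low, 2.36 to 2.89 in early high and 2.23 to 2.49 in late high pools. Markers of neurons (4 genes) summed to 96.7 to 102 in water, 98.4 to 107.7 in low, 101.8 to 107.4 in early high and 105.4 to 109.3 in late high pools. Skeletal muscle markers (4 genes) ran from 0.765 to 0.850 in water, 0.833 to 1.15 in low, 0.726 to 0.943 in early high and 0.752 to 0.963 in late high pools. Astrocyte markers (3 genes) ran from 16.1 to 18.9 in water, 17.4 to 18.2 in low, 17.01 to 18.73 in early high and 17.3 to 20.3 in late high pools. Clic6 alone gave 67.3% to 85.0% of the choroid plexus signal. The part of any of these in the subunit values was not tested.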
